A study of Mus musculus with 8 samples.

Results

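The genes described here are 4 ligands of the bone morphogenetic protein (BMP) family (*Bmp2*, *Bmp4*, *Bmp6* and *Bmp7*), 2 BMP receptors (*Bmpr1a* and *Bmpr2*) and the 4 *Id* genes, measured in kidneys of *Scube3* mutant mice. These 10 of the 16593 genes named on the array were chosen by family and symbol with their log2 fold changes between the genotypes on these same arrays already known, so those differences are given as a description. They are represented by 13 of the 25697 probes. The tissue was whole kidney, and RNA of each mouse was hybridized to 1 array of the Illumina Mouse Ref8 v2.0 BeadChip. The 4 mutant mice were homozygous for *Scube3*, in which an asparagine is replaced by a lysine by a recessive point mutation induced with ENU, a chemical mutagen. The other 4 mice were wild type. Mice of both genotypes were males of the C3HeB/FeJ strain aged 29 wk. The mutation is present in every cell of the animal from conception on, and the arrays measured whole kidney at 1 age. A difference may therefore have arisen at any earlier time or in any cell type.

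BMPs are secreted ligands that bring together type I receptors, such as BMPR1A, and type II receptors, such as BMPR2, on the surface of a cell. The activated type I receptor phosphorylates SMAD1, SMAD5 and SMAD9, which enter the nucleus with SMAD4 and activate genes, among which *Id1*, *Id2* and *Id3* are classical targets. ID proteins lack a DNA-binding domain and hold other basic helix-loop-helix proteins away from DNA. In the kidney, BMP7 is needed for nephron formation and BMP4 for outgrowth of the ureter. SCUBE3 is a secreted and membrane-attached glycoprotein that has been described as a co-receptor for BMPs.

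The 250 bases before the transcript start are shown for *Bmp4*, *Bmpr1a* and *Id4*, because a probe of each of these genes separated the genotypes, and for *Id2* and *Id3*, which stand for the *Id* genes that did not. Sequences are from RefSeq on GRCm38.p6, whose promoter table matched 7 of the 10 genes, and each reads 5′ to 3′ in the direction of transcription. The windows are chr14:46390670-46390919 on the minus strand for *Bmp4*, chr14:34502547-34502796 on the minus strand for *Bmpr1a* and chr13:48260866-48261115 on the plus strand for *Id4*. Those of *Id2* and *Id3* are chr12:25096093-25096342 on the minus strand and chr4:136143572-136143821 on the plus strand. The *Bmpr1a* window lies within the annotated span of the gene, before the start of a transcript that begins inside it. Capitals mark GGCGCC, which is its own reverse complement, and GGAGCC on either strand (GGCTCC when read from the other one), both GC-rich motifs known to be bound by the SMADs that act below BMP receptors.
Bmp4: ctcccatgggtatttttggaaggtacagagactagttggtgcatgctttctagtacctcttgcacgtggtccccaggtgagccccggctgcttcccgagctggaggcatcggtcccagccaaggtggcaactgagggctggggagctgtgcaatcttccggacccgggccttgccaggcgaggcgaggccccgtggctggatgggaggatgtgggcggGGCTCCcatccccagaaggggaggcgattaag
Bmpr1a: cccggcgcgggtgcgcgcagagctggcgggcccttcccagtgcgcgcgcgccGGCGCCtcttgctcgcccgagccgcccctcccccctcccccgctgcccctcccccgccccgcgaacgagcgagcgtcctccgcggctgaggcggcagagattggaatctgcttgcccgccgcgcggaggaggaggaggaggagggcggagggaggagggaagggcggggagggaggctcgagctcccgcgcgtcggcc
Id4: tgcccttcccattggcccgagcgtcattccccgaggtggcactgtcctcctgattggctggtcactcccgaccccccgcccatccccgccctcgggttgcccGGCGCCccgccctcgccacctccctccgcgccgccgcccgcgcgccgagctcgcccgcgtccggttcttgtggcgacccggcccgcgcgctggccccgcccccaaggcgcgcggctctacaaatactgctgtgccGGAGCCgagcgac
Id2: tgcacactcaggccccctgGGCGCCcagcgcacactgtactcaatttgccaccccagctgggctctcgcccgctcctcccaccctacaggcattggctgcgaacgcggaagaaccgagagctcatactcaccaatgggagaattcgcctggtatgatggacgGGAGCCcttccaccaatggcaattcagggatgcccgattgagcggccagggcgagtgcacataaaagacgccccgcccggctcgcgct
Id3: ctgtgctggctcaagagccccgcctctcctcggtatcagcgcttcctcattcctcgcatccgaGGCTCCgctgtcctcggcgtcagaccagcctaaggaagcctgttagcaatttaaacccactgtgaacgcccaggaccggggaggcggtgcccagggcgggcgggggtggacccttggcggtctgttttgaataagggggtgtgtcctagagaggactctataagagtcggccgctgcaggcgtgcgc
The *Id4* and *Id2* windows hold both motifs, the *Bmpr1a* window holds GGCGCC and the *Bmp4* and *Id3* windows hold GGAGCC. Of the 2 other windows in the table, that of *Bmpr2* holds GGCGCC and that of *Bmp6* holds neither, so that 6 of 7 hold a motif. No matches overlapped. Of 32851 RefSeq windows of this length, 9.59% hold GGCGCC, 26% hold GGAGCC and 31.7% hold either. The 7 windows are 62.8% to 78.8% G or C, and the 32851 windows were not matched for this, so the shares cannot show enrichment. The matches are found in genes whose probes were higher, lower or not different between genotypes. They describe letters, and binding was not measured.

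Of the 13 probes, 10 were above background (a detection p-value under 0.05) on at least 4 of the 8 arrays and were tested. These 10 probes covered 8 of the 10 genes. The *Bmp2* probe and both *Bmpr2* probes were above background in no mouse. Levels are normalized log2 intensities, so a difference of 1 is a doubling, and fold changes are mutant minus wild type on that scale. Of the probes tested, 1 was higher (*Bmp4*), 2 were lower (a probe of *Bmpr1a* and that of *Id4*) and 7 did not pass an adjusted p of 0.05 in limma. The *Id4* probe met the rule of 4 arrays only through the wild type mice, where it was higher. Its call and its separation of the genotypes were therefore favored in advance and add no support. Over the whole array, 7.83% of 12914 tested probes were higher and 8.9% were lower, and these shares are given only as the background of a set picked for its result. The median log2 fold change was -0.04 over the 10 probes and 0.01 over all probes tested. For the same 3 probes the mutant mice lay wholly above or wholly below the wild type mice, as they did for 23.8% of all probes tested.

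**Figure D1:**
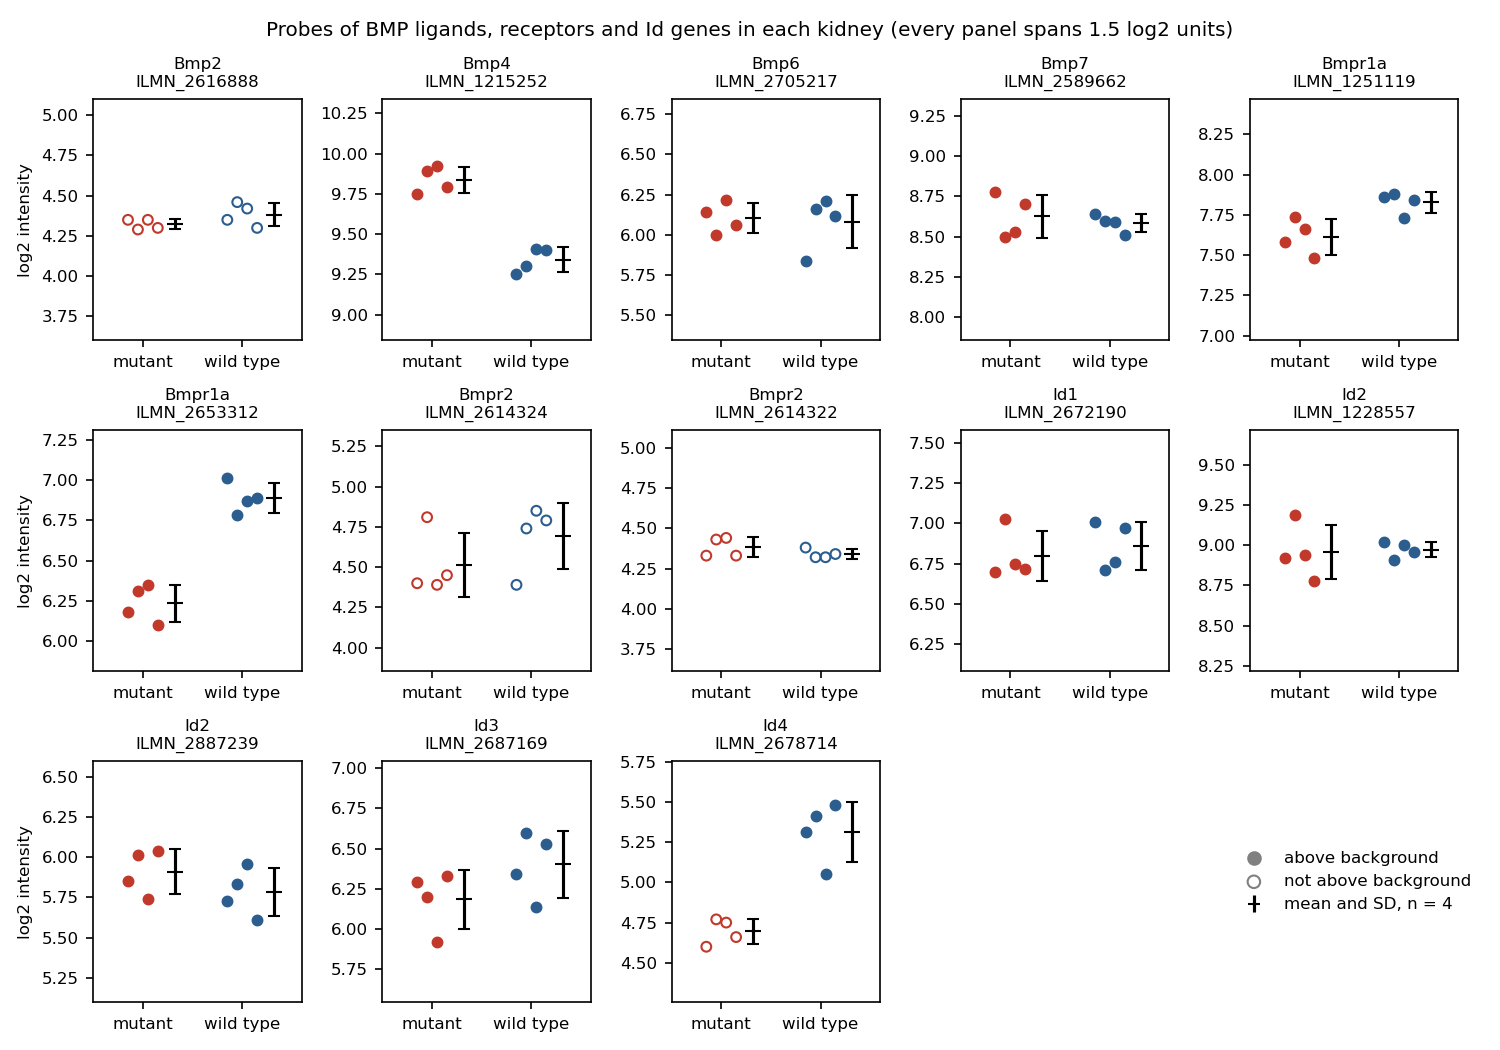
Normalized log2 intensity of each of the 13 probes in each mouse, with mutant mice on the left and wild type mice on the right of every panel. Filled points are above background, open points are not, black bars give the mean and SD (n = 4), and the genotypes separate for *Bmp4*, *Id4* and the *Bmpr1a* probe ILMN_2653312.

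Among the ligands, *Bmp4* was higher in the mutant kidneys. Its probe, ILMN_1215252 (*Bmp4* lies on chromosome 14 of GRCm38.p6, 46383525 to 46390669), read 9.75, 9.89, 9.92 and 9.79 in the mutant mice, against 9.25, 9.30, 9.41 and 9.40 in the wild type mice. The lowest mutant mouse was 0.34 above the highest wild type mouse, a gap wider than the range within either genotype. The means were 9.84 ± 0.08 in mutant and 9.34 ± 0.08 in wild type mice (SD, n = 4 each), or 0.50 higher on the log2 scale (SE 0.07, 95% interval 0.35 to 0.65) and 1.41-fold (limma, adjusted p = 0.00341). In the intensities normalized by the authors, *Bmp4* averaged 904 ± 53.3 in mutant and 631 ± 33.1 in wild type mice (SD, n = 4 each). SAM, the permutation method named in the study's methods, called the probe at an FDR under 6%, but its fold of 1.43 on those values was below the 1.6 that the methods required. In a whole organ, fewer or more cells of a type and less or more RNA per cell cannot be told apart, which applies to every difference given here.

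The other ligands did not pass the test. *Bmp7*, which supports the nephron progenitors of the developing kidney, read 8.78, 8.50, 8.53 and 8.70 in mutant mice, against 8.64, 8.60, 8.59 and 8.51 in wild type mice. The genotypes overlapped, and the interval of the log2 fold change was -0.13 to 0.21 around 0.04 (SE 0.08, adjusted p = 0.727), which under scaling to a common median was -0.038. *Bmp6*, best known as the ligand that sets hepcidin in the liver, read 6.14, 6.00, 6.22 and 6.06 in mutant mice, against 5.84, 6.16, 6.21 and 6.12 in wild type mice. The log2 difference was 0.02 (SE 0.09, interval -0.18 to 0.23, adjusted p = 0.881), and -0.069 under median scaling. The *Bmp2* probe lay between 4.29 and 4.35 in the mutant mice and between 4.30 and 4.46 in the wild type mice, not above background on any array, so that only a bound on its level is known.

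The type I receptor gene *Bmpr1a* (chromosome 14, 34411061 to 34503336) has 2 probes above background, and both had a lower mean in the mutant mice, but only the dimmer one passed the test. The dimmer probe, ILMN_2653312, read 6.18, 6.31, 6.35 and 6.10 in mutant mice, against 7.01, 6.78, 6.87 and 6.89 in wild type mice. The highest mutant mouse was 0.42 below the lowest wild type mouse. The log2 difference was -0.65 (SE 0.08, interval -0.83 to -0.48, adjusted p = 0.00276), and the level in the mutant mice fell by 36.3% relative to wild type. Without background correction the same difference was -0.31 (adjusted p = 0.000665), and the probe passed SAM with a fold of 1.71 on the authors' intensities (60.2 ± 6.32 in mutant and 103 ± 8.48 in wild type mice, SD, n = 4 each).

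The brighter *Bmpr1a* probe, ILMN_1251119, read 7.58, 7.74, 7.66 and 7.48 in mutant mice, against 7.86, 7.88, 7.73 and 7.84 in wild type mice. The highest mutant mouse was just above the lowest wild type mouse. The log2 difference was -0.22 (SE 0.07, interval -0.38 to -0.05, adjusted p = 0.0671). It passed when the arrays were scaled to a common median (-0.30, adjusted p = 0.0370) and when no background was subtracted (-0.14, adjusted p = 0.0408). The fitted intervals of the 2 probes do not overlap, and the difference between the probes was not tested. Where each probe lies in the transcript is not given in the sources used here. A gene counted by its brighter probe leaves *Bmpr1a* uncalled. The 2 probes of the type II receptor gene *Bmpr2* were between 4.33 and 4.81 in mutant mice and between 4.32 and 4.85 in wild type mice, not above background on any array.

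By a fixed measure of likeness, the root mean square distance between levels centred on their mean over the 8 mice, the 3 named genes nearest to the *Bmpr1a* probe ILMN_2653312 among 12183 probes were *Kat2b*, *Caprin1* and *Rock1*. Their distances were 0.058, 0.059 and 0.071, against a median of 0.367 over those probes, below which the 3 smallest must lie. The *Bmpr1a* probe was taken because its p was the smallest of the probes tested here. Their log2 fold changes were -0.63, -0.60 and -0.56. Genes picked for so small a distance from this probe had to be lower in mutant mice too. *Kat2b*, which encodes a histone acetyltransferase, read 6.27, 6.36, 6.26 and 6.07 in mutant mice, against 6.97, 6.82, 6.83 and 6.87 in wild type mice. *Caprin1* encodes an RNA-binding protein and *Rock1* a kinase that acts on the cytoskeleton.

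**Figure D2:**
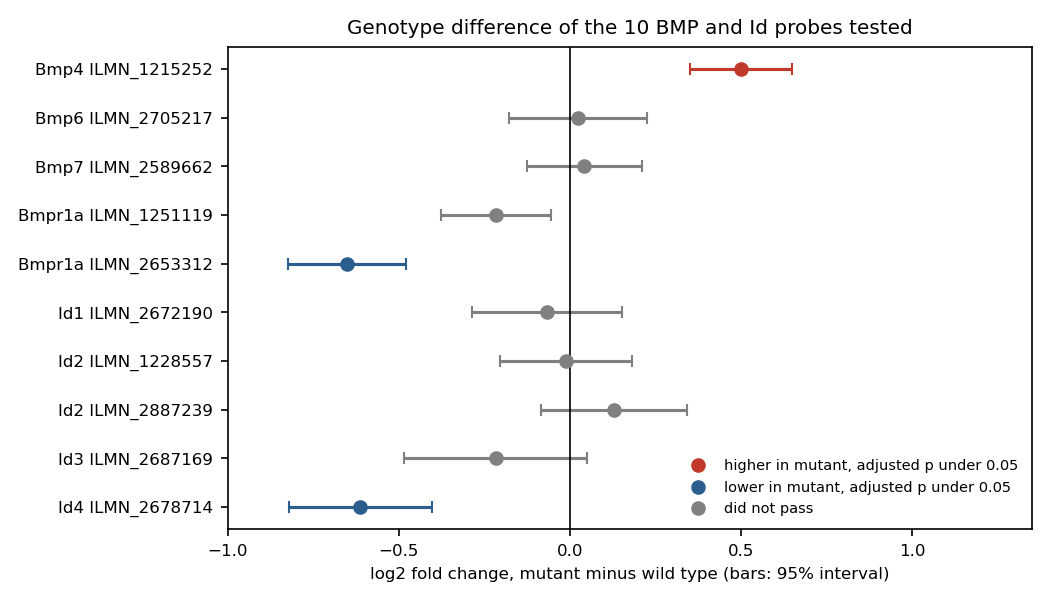
Log2 fold change (mutant minus wild type) of the 10 probes tested, with its 95% interval from limma. *Bmp4* lies at 0.50, *Bmpr1a* ILMN_2653312 at -0.65 and *Id4*, tested only through its wild type mice, at -0.61. Grey probes did not pass an adjusted p of 0.05. *Bmp6* and *Bmp7*, near 0, changed sign under median scaling.

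Among the *Id* genes, *Id4* (chromosome 13, 48261116 to 48266028), which encodes the family member best known from brain and mammary development, was lower in the mutant mice. Its probe ILMN_2678714 read 4.60, 4.77, 4.75 and 4.66 in mutant mice, none of them above background, against 5.31, 5.41, 5.05 and 5.48 in wild type mice, all 4 above background. It therefore entered the test only through the wild type mice and had to differ. Taken against the lowest level above background, the mean of *Id4* was 1.32-fold lower in mutant kidneys (limma, adjusted p = 0.00524 for a fitted log2 difference of -0.61). This bound holds for the processing used here and leaves out the spread between mice. The signal is dim: the scanned intensity averaged 126 in mutant and 148 in wild type mice before any background was removed. The fitted difference was -0.30 with a larger offset and -0.16 without background correction. SAM also called the probe, but whether its fold passed the 1.6 required was set by the floor of 16 applied before log2. That floor was a choice made here, and the paper lists *Id4* among its regulated genes in kidney. The authors' intensities averaged 8.11 ± 2.09 in mutant and 23.9 ± 5.25 in wild type mice (SD, n = 4 each), and raising all 4 mutant values to 16 left a fold of 1.46.

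The other *Id* genes, which are the usual readouts of BMP receptor activity, did not pass. *Id1* (ILMN_2672190) read 6.70, 7.03, 6.75 and 6.72 in mutant mice, against 7.01, 6.71, 6.76 and 6.97 in wild type mice. Mice of both genotypes fell at a lower level near 6.7 and a higher one near 7.0, and the log2 fold change was -0.07 (SE 0.10, interval -0.29 to 0.15, adjusted p = 0.668). *Id3* (ILMN_2687169) read 6.29, 6.20, 5.92 and 6.33 in mutant mice, against 6.34, 6.60, 6.14 and 6.53 in wild type mice, a log2 fold change of -0.22 (SE 0.12, interval -0.48 to 0.05, adjusted p = 0.227). The genotypes overlapped for *Id3*, and its interval includes 0 as well as a difference about as large as that of *Bmp4* but of opposite sign.

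*Id2* has 2 probes above background, and neither separated the genotypes. The brighter, ILMN_1228557, read 8.92, 9.19, 8.94 and 8.78 in mutant mice, against 9.02, 8.91, 9.00 and 8.96 in wild type mice. The log2 difference was -0.01 (SE 0.09, interval -0.21 to 0.18, adjusted p = 0.934), with a wider spread among the mutant mice (SD 0.17) than among the wild type mice (SD 0.05). The dimmer, ILMN_2887239, read 5.85, 6.01, 5.74 and 6.04 in mutant mice, against 5.73, 5.83, 5.96 and 5.61 in wild type mice (log2 fold change 0.13, SE 0.10, interval -0.08 to 0.34, adjusted p = 0.365).

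**Figure D3:**
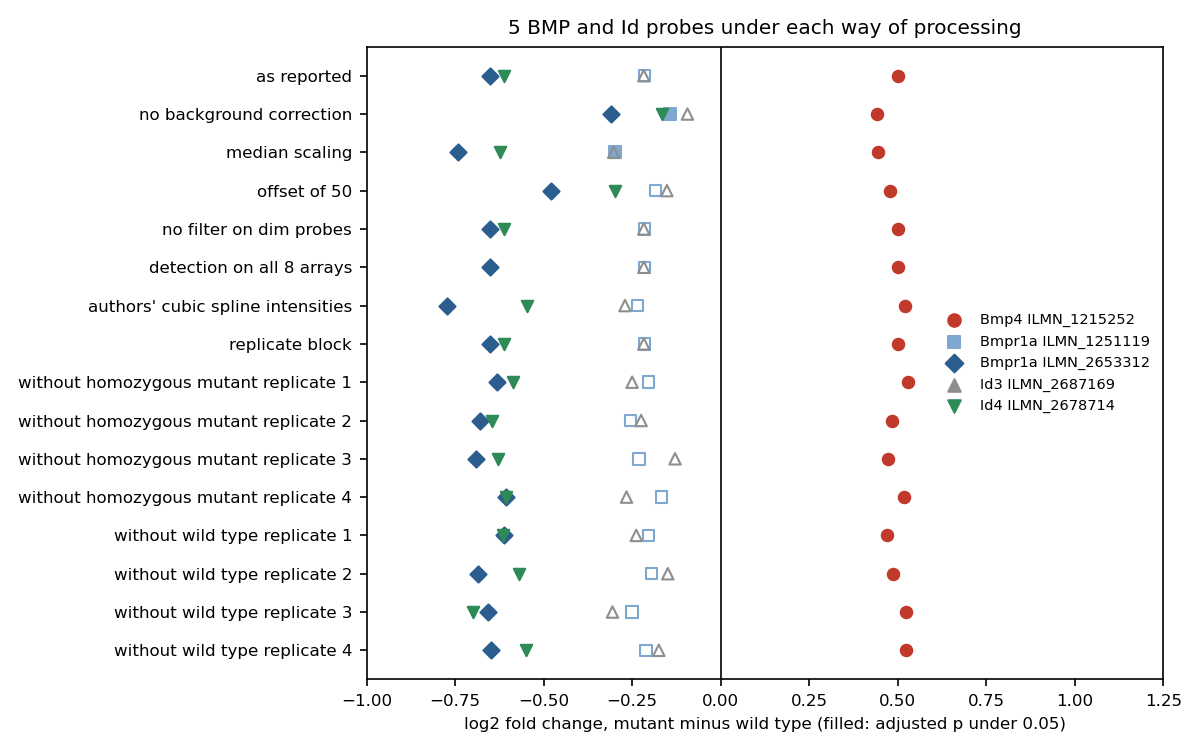
Log2 fold change (mutant minus wild type) of 5 probes under each way of processing the arrays, including the fits that leave out 1 mouse. Filled symbols have an adjusted p under 0.05: *Bmp4* and *Bmpr1a* ILMN_2653312 are filled in every row, *Id4* in every row in which it could be fitted, *Bmpr1a* ILMN_1251119 in 2 rows and *Id3* in none. Outside the row without a filter, *Id4* was fitted only through its wild type mice, and those filled symbols add no separate support.

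*Scube3* itself, on chromosome 17, did not differ beyond the spread between mice. Its level was 5.50 ± 0.30 in mutant and 5.38 ± 0.23 in wild type mice (SD, n = 4 each), and the log2 difference was 0.12 (SE 0.16, adjusted p = 0.625). A point mutation need not change the level of its transcript, so this probe does not check the genotype labels. *Scube1* and *Scube2* were not above background by the rule on arrays.

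The rest of the pathway was described by 6 lists that name 90 genes. A probe was found for 80, and 42 were tested by their brightest probe. Of these, 3 were higher, 8 were lower and 31 did not pass, with a median log2 fold change of -0.04, against 0.03 over all 8999 genes tested. Over all genes, 8.39% were higher and 7.86% were lower (16.2% in either direction). Of the pathway genes that passed, *Bmp8a* and *Fst* met the rule of 4 arrays through the genotype where they were higher, which favored a difference. Where a difference below that passed moved by more than 1.5 times when no background was subtracted, that value is given too.

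Extracellular antagonists and processing factors, which bind BMPs or release them, held most of the genes that passed. Of 23 genes, 11 were tested, 2 were higher and 4 were lower. *Sostdc1*, an antagonist of BMP and WNT ligands made in the distal nephron, read 8.06, 7.74, 7.89 and 7.79 in mutant mice, against 8.64, 8.33, 8.33 and 8.35 in wild type mice. It was lower in every mutant mouse than in any wild type mouse (log2 fold change -0.54, SE 0.10, limma adjusted p = 0.00819).

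*Fstl1*, which encodes a secreted follistatin-like glycoprotein, read 6.85, 6.46, 6.47 and 6.60 in mutant mice, against 7.24, 7.23, 6.93 and 7.34 in wild type mice (log2 fold change -0.59, SE 0.11, adjusted p = 0.010, -0.31 without background correction). *Fst*, the activin and BMP antagonist follistatin, differed by -0.63 on the log2 scale (SE 0.12, adjusted p = 0.0113, -0.17 without background correction) and was above background in 1 of 4 mutant and 4 of 4 wild type mice. The 4 wild type mice, where *Fst* was higher, by themselves met the rule for testing, so its p-value is a description. *Twsg1*, whose product modulates chordin and BMP binding, had a log2 difference of -0.37 (SE 0.08, adjusted p = 0.0184). That call was lost without wild type replicate 1 and with the replicate number as a block (adjusted p up to 0.0519).

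The 2 higher genes were *Kcp*, encoding kielin/chordin-like protein, an enhancer of BMP signaling in the kidney, and *Nbl1*, encoding a DAN-family antagonist. *Kcp* read 8.33, 8.32, 8.41 and 8.36 in mutant mice, against 7.94, 8.13, 8.04 and 8.14 in wild type mice (log2 fold change 0.29, SE 0.06, adjusted p = 0.0167). It did not pass under median scaling (0.20). *Nbl1* was higher by 0.30 on the log2 scale (SE 0.07, adjusted p = 0.0211, 0.15 without background correction), and its call was lost under median scaling and when any of 4 mice was left out (mutant replicate 2 or 3, wild type replicate 2 or 3).

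Of 15 other BMP and GDF ligands, 4 were tested. *Bmp8a*, a ligand best known from germ cells and brown fat, read 5.01, 5.01, 5.12 and 5.38 in mutant mice, all 4 above background, against 4.50, 4.86, 4.74 and 4.77 in wild type mice, none above background. It entered the test only through the mutant mice. Taken against the lowest level above background, its mean was 1.17-fold higher there (limma, adjusted p = 0.0269 for the fitted difference). That bound holds for this processing only and leaves out the spread between mice. The fitted log2 difference was 0.41, and 0.11 without background correction, where it did not pass. The authors' intensities averaged 18.8 ± 4.80 in mutant and 8.28 ± 4.46 in wild type mice (SD, n = 4 each), but with values under 16 raised to 16, as were all 4 wild type values, the log2 difference was 0.22 and did not pass. The call was also lost without mutant replicate 3 or 4 and without wild type replicate 1 or 3 (adjusted p up to 0.316 over all alternatives).

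*Gdf10*, also named *Bmp3b*, read 7.17, 7.20, 6.67 and 7.44 in mutant mice, against 7.84, 7.41, 7.60 and 7.71 in wild type mice. The genotypes overlapped, and the log2 difference of -0.52 (SE 0.15, adjusted p = 0.0446, -0.32 without background correction) did not pass under 9 of 15 alternatives, 6 of which left out a single mouse (mutant replicate 1, 2 or 3, wild type replicate 1, 3 or 4).

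Of 14 other receptors and co-receptors, 7 were tested and none passed. The type I receptor gene *Bmpr1b* differed by 0.21 on the log2 scale (SE 0.09, interval 0.02 to 0.40, adjusted p = 0.109), the opposite sign to *Bmpr1a*, and its second probe above background gave 0.24. The endothelial co-receptor gene *Eng* had -0.19 (SE 0.10, adjusted p = 0.219).

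**Figure D4:**
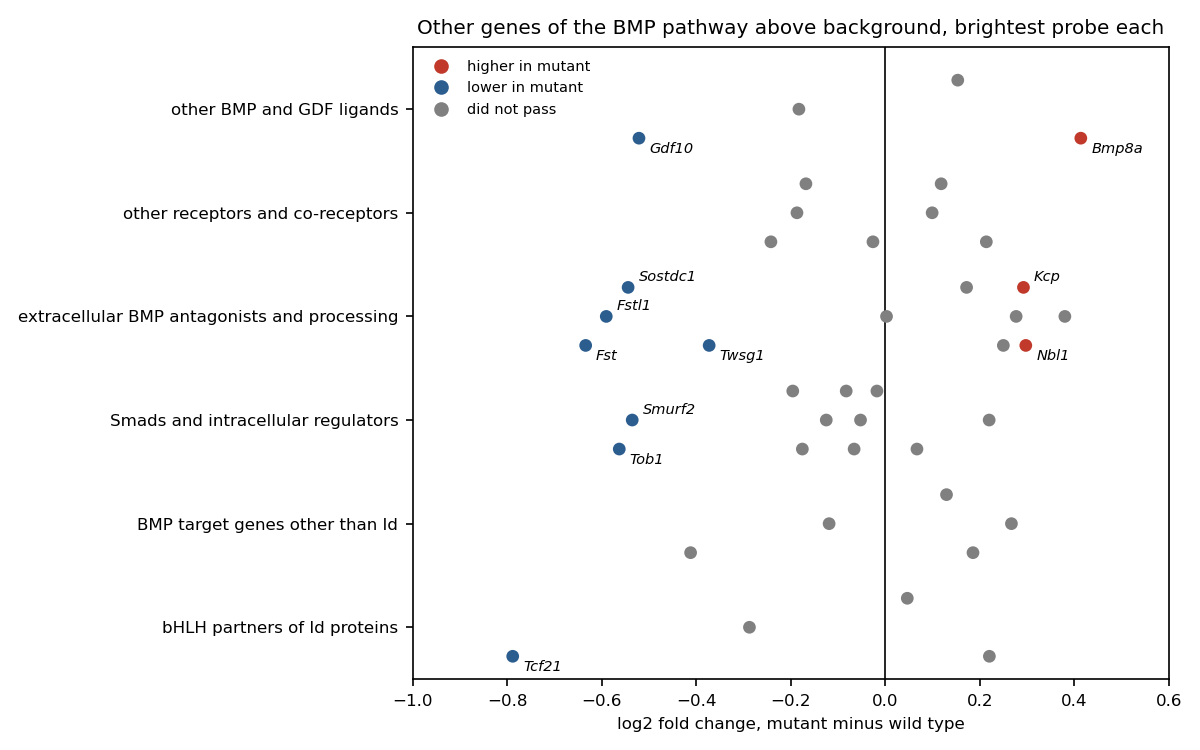
Log2 fold change (mutant minus wild type) of the 42 genes of the 6 other pathway lists above background, 1 point per gene. Named genes passed an adjusted p of 0.05, with 8 lower and 3 higher in mutant kidneys. *Kcp* and *Nbl1* did not pass under median scaling.

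Of 15 Smads and intracellular regulators, 11 were tested and 2 were lower. *Tob1*, encoding an antiproliferative protein that represses BMP Smads, read 8.47, 8.45, 8.27 and 8.26 in mutant mice, against 9.17, 8.76, 8.97 and 8.82 in wild type mice (log2 fold change -0.56, SE 0.10, adjusted p = 0.00819). *Smurf2*, encoding a ubiquitin ligase that acts on Smads and their receptors, differed by -0.54 on the log2 scale (SE 0.13, adjusted p = 0.0256, -0.24 without background correction), which did not pass without mutant replicate 1 or 4 or without wild type replicate 1 or 2. None of the tested Smads that carry the BMP signal passed, with log2 fold changes of -0.05 for *Smad1* (interval -0.23 to 0.13), 0.07 for *Smad5* (interval -0.13 to 0.26, and -0.012 under median scaling) and -0.07 for *Smad4* (interval -0.23 to 0.10). *Smad9* was not above background by the rule on arrays and has no fold change.

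Of 15 target genes of BMP signaling other than *Id* genes, 5 were tested and none passed. *Hey1*, a target shared with Notch signaling, was nearest, at 5.31, 5.69, 5.25 and 5.52 in mutant mice, against 6.00, 5.59, 5.74 and 6.09 in wild type mice (log2 fold change -0.41, SE 0.13, adjusted p = 0.0578, -0.14 without background correction), and it passed under 5 of 15 alternatives. *Gata3*, a transcription factor gene of the collecting duct, had 0.27 (SE 0.09, adjusted p = 0.0668) and passed under 2.

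Of 8 genes for basic helix-loop-helix proteins, the class to which ID proteins bind, 4 were tested and 1 was lower. *Tcf21*, a transcription factor gene of podocytes and stromal cells, read 7.01, 7.04, 6.67 and 6.64 in mutant mice, against 7.91, 7.50, 7.32 and 7.78 in wild type mice (log2 fold change -0.79, SE 0.14, adjusted p = 0.00938, -0.47 without background correction). No mutant mouse reached the level of the lowest wild type mouse. *Tcf12* had -0.29 (SE 0.11, adjusted p = 0.100) and passed only under median scaling among the alternatives.

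Markers of kidney cell types moved with genotype as well, and their part in the differences above was not tested. The counts of markers that passed stand beside 16.2% of all 8999 genes tested, which passed in either direction. Proximal tubule genes were abundant on all arrays, with summed normalized intensities of 60086 to 61120 in mutant and 57824 to 61870 in wild type mice over 8 genes. *Lrp2*, encoding the uptake receptor megalin, was the 1 gene of that list to pass (log2 fold change -0.47, and -0.19 without background correction), and its call was lost without wild type replicate 2, 3 or 4 and with the replicate block. Of 7 thick ascending limb genes, 5 were lower, namely *Slc12a1* (-1.14), *Ptger3* (-0.67, and -0.28 without background correction), *Egf* (-0.65), *Umod* (-0.54) and *Cldn16* (-0.37). The other 2 did not pass, and the highest log2 fold change in the list was 0.23. The sums were 10156 to 12819 in mutant and 16404 to 19345 in wild type mice, and *Umod* made up most of each. The call of *Cldn16* was lost under 9 of 15 alternatives, among them leaving out mutant replicate 2, 3 or 4 or any wild type mouse.

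Most glomerular and vascular markers did not pass, as held for all genes tested. Of 3 podocyte genes tested *Wt1* was lower (-0.46), and of 12 endothelial genes *Ehd3* (-0.62) and *Cdh5* (-0.37) were lower. Without background correction these were -0.24, -0.35 and -0.13, and *Cdh5* did not pass without mutant replicate 2 or wild type replicate 1. The log2 fold changes of the 12 endothelial genes ran from -0.62 to 0.19, with a median of -0.22. The highest was that of *Flt1*, which did not pass, although every mutant mouse lay above every wild type mouse. *Pecam1* (-0.37, limma adjusted p = 0.0540) did not pass either, although every mutant mouse lay below every wild type mouse. The sums ran over 937 to 1111 in mutant and 1069 to 1368 in wild type mice for podocytes, and over 6656 to 7569 in mutant and 7036 to 8700 in wild type mice for endothelium.

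Of 5 urothelial genes tested, 4 were higher (*Upk1b* 0.91, *Upk3a* 0.77, *Upk2* 0.67 and *Upk1a* 0.54), and *Upk3b* was at 0.018. Without background correction the 4 passed at 0.30, 0.28, 0.30 and 0.17. The sums over the 7 urothelial genes with a probe were 381 to 495 in mutant and 287 to 329 in wild type mice. The second probe of *Upk1a* above background did not pass (0.11). *Krt5* and *Krt20* were not above background by the rule. Of 4 distal convoluted tubule genes, 3 were higher (*Cnnm2* 0.32, *Slc12a3* 0.30 and *Pvalb* 0.30). The calls of *Slc12a3* and *Pvalb* were lost under median scaling and without mutant replicate 3 or wild type replicate 1, 2 or 3, and that of *Pvalb* also without mutant replicate 2 or 4. Of 7 principal cell genes, *Scnn1b* (0.31) and *Fxyd4* (0.28) were higher and *Aqp4* (-0.47) and *Hsd11b2* (-0.41) were lower. Under median scaling *Scnn1b* and *Fxyd4* did not pass. *Scnn1b* did not pass without mutant replicate 3 or 4 or wild type replicate 1 or 2, nor *Hsd11b2* without mutant replicate 1, 2 or 4 or wild type replicate 1 or 3. No gene of the lists for intercalated cells (5 tested), fibroblasts and smooth muscle (7), leukocytes (6) or red blood cells (3) passed. The genes of smallest p in those lists were *Slc26a4* (0.22, adjusted p = 0.177), *Pdgfra* (-0.30, adjusted p = 0.0786), *Cd79a* (-0.26, adjusted p = 0.107) and *Hbb-b2* (-0.37, adjusted p = 0.556). The leukocyte genes *Ptprc*, *Itgam* and *Cd3e* were not above background.

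Median scanned intensities were 127 to 135 in mutant and 133 to 139 in wild type mice, and 12602 to 13060 probes in mutant and 12685 to 13127 in wild type mice were above background. The first principal component (41.6% of the variance) separated the genotypes, and 1011 probes were higher and 1149 lower. Scaled to a common median, the counts were 241 higher and 1588 lower. No batch is named in the labels, so a batch shared by the mice of a genotype and the genotype itself cannot be told apart. The number of arrays limits the precision, with a median SE of 0.084 for a log2 fold change.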

How the data were processed

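Kidney RNA of 4 mutant and 4 wild type mice was measured with 1 array per mouse, and groups and replicate numbers follow the labels. The authors deposited the scanned intensity of each probe, without background subtraction or normalization, together with its detection p-value on that array (the share of negative controls at least as bright). The authors also deposited intensities normalized by cubic spline in GenomeStudio 2011.1 after background subtraction. The scanned values were corrected with normexp from the detection p-values (offset 16), brought to common quantiles and log2-transformed (neqc, limma 3.58.1, R 4.3.3). The offset compresses differences of dim probes, while background correction widens them, as for *Id4* (-0.61, against -0.16 without it). The 12914 probes above background (detection p under 0.05) in 4 or more of the 8 mice were fitted with lmFit and eBayes, with Benjamini-Hochberg adjustment over them. Gene names come from the platform annotation, matched by gene number to GRCm38.p6 for 23962 of 23978 named probes, and 1719 probes had none. A gene of a list was read by its brightest probe. Where no mouse of a genotype was above background, the fold is a bound against, for each array, the higher of the lowest level above background and the probe's own. SAM (fold above 1.6, FDR under 6%, values under 16 set to 16, 70 arrangements, delta 1.04) was run on the authors' intensities as an alternative. The fit was tested on simulated data.

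The genes, lists and tests were chosen with earlier results of these data known. Named genes are every probe of the 10 genes, the list genes that passed, the 2 genes of smallest p in each pathway list, *Scube3*, the 3 nearest patterns and, of each cell type list, the genes that passed or else the gene of smallest p. *Smad1*, *Smad5*, *Smad4*, *Flt1*, *Pecam1* and *Upk3b* fall outside that rule and were named after their values were seen. Alternatives changed the background correction, scaling, offset, filter, normalization and block, or left out each mouse.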

Additional observations from a re-analysis of the deposited data

Results flagged for a closer look

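Of 120 groups of 4 mice among the BMP and *Id* probes and the brightest probes of the other genes named, 9 held a mouse far from the other 3 by Dixon's criterion, and chance alone gives about 1 in 20. *Flt1*, *Pecam1* and *Upk3b* were not among these groups. *Id1* was 7.03 in mutant replicate 2 and 6.70 to 6.75 in the other mutant mice. The *Bmpr2* probe ILMN_2614324 was 4.81 in mutant replicate 2 and 4.39 to 4.45 in the other mutant mice, none above background. *Twsg1* was 9.59 in mutant replicate 4 and 9.86 to 9.88 in the other mutant mice. *Sostdc1* was 8.64 in wild type replicate 1 and 8.33 to 8.35 in the other wild type mice. *Smad5* was 8.21 in mutant replicate 4 (8.37 to 8.39 in the other mutant mice), *Lrp2* was 5.59 in mutant replicate 4 (6.02 to 6.08) and *Slc26a4* was 10.80 in mutant replicate 3 (10.43 to 10.46). *Pvalb* was 11.74 in wild type replicate 4 (11.45 to 11.48 in the other wild type mice) and *Cd79a* was 4.84 in wild type replicate 3 (5.21 to 5.23).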

How the results depend on the processing

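Of 149 values of the BMP and *Id* probes under alternatives, 140 kept their direction and their side of the threshold, 2 passed it (*Bmpr1a* ILMN_1251119) and 7 changed sign, none of them past the threshold. The changes of sign were *Bmp6* (-0.069 under median scaling, -0.014 without mutant replicate 3, -0.059 without wild type replicate 1), *Bmp7* (-0.038 under median scaling, -0.0076 without mutant replicate 1) and *Id2* ILMN_1228557 (0.047 without mutant replicate 4, 0.0040 without wild type replicate 1), with ranges of -0.059 to 0.066, -0.0076 to 0.084 and -0.091 to 0.047 when a mouse was left out. Outside these genes, changes of sign were *Smad5* (-0.012 under median scaling, -0.0091 to 0.12 when a mouse was left out), *Smad1* (-0.088 to 0.0058) and *Scube3* (-0.012 to 0.21), none past the threshold. *Bmp4* ranged over 0.44 to 0.53 and *Bmpr1a* ILMN_2653312 over -0.77 to -0.31. The higher BMP and *Id* probe numbered 0 by SAM with its fold, and 1 to 1 when a mouse was left out. The lower probes numbered 1 by SAM, where the floor of 16 set the fold of *Id4*, 1 with detection required on all 8 arrays, which leaves *Id4* out, and 2 to 2 when a mouse was left out. Other pathway genes higher numbered 1 under median scaling, 5 with an offset of 50 and 1 to 4 when a mouse was left out (1 without mutant replicate 3 or wild type replicate 3), and those lower 5 to 8 (5 without wild type replicate 1). Over all probes, 241 were higher under median scaling, 557 with the replicate number as a block, 68 by SAM (166 lower) and 492 to 740 when a mouse was left out (648 to 944 lower), lowest in both directions without wild type replicate 1. The cause of these shifts was not tested. Replicate numbers gave no sign of pairing the mice: 1 of 4 numbers correlated best with its own number. Correlations within a number were -0.096 to 0.13, too weak to show or exclude a pairing. The block changed no call of a BMP or *Id* probe. Signal over background limits *Bmp2*, *Bmpr2* and *Id4*, and 1 value for *Id4* was not obtained because it was then not fitted.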
